A study of Homo sapiens with 14 samples.

Results

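A set of 9 genes that have been reported as silenced by EZH2 in cancer, DAB2IP, RUNX3, SLIT2, CNR1, RARB, TIMP3, VASH1, RND3 and PEBP1, was followed through every group of a microarray study of LNCaP cells. The measurements were 28 of the 54613 probe sets of the array, each annotated to exactly 1 of these symbols, and they covered 8 of the 9 genes. RARB and VASH1 had 5 probe sets each, TIMP3 and CNR1 4 each, RUNX3, SLIT2 and PEBP1 3 each, and RND3 had 1. DAB2IP expression was not analysed here.

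LNCaP is an androgen-responsive human prostate cancer cell line, and the study asked how residue T350 of EZH2, a phosphorylation site, bears on gene repression. The 14 arrays formed 7 groups of 2. Untransfected cells were treated for 24 h with 0.1% DMSO (the solvent), with 5 uM TSA (trichostatin A, which inhibits histone deacetylases) or with 10 uM Roscovitine (which inhibits cyclin-dependent kinases). The 4 transfected groups were collected after 60 h. One carried a control siRNA and is called si-Control, one carried the EZH2 siRNA alone and is called si-EZH2, and the last 2 carried that siRNA together with a plasmid for EZH2 that resists it. The plasmid encoded either wild-type EZH2 (wild-type add-back) or EZH2 in which the T350A change replaces threonine with alanine (T350A add-back). The labels give no selection for transfected cells, so a culture may hold cells without plasmid. All 4 transfected groups share the handling that the drug groups lack. None of the 7 groups carried a plasmid without EZH2. Against si-EZH2 or si-Control, the plasmid of an add-back and the EZH2 it encodes therefore cannot be told apart. Whether the paired arrays stem from separate cultures is not said in the labels, and p-values therefore cover only the spread between these samples, which may be technical.

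EZH2 carries the methyltransferase activity of the Polycomb complex PRC2, which methylates lysine 27 of histone H3 and keeps the marked genes off, while histone deacetylases remove the acetyl groups that go with open chromatin. Prostate tumours often carry high levels of EZH2, and the genes of this set encode proteins that restrain invasion, vessel growth or proliferative signalling. TIMP3, SLIT2 and VASH1 are secreted: TIMP3 inhibits matrix metalloproteinases, SLIT2 is the ligand of ROBO guidance receptors, and VASH1 restrains vessel growth and, inside the cell, removes the terminal tyrosine of tubulin. CNR1 is a cannabinoid receptor at the cell surface, and RARB a nuclear receptor for retinoic acid. RND3 is an atypical small GTPase that opposes actin contraction, PEBP1 is a phosphatidylethanolamine-binding protein that restrains proliferative kinase signalling, DAB2IP is a Ras GTPase-activating protein, and RUNX3 is a transcription factor of the Runt family.

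The promoters of the 4 genes that changed under TSA in every one of their probe sets are shown first: TIMP3, SLIT2 and RND3 rose together and PEBP1 fell. The sequences are from RefSeq (GRCh38.p14), 250 bases before the annotated start, written 5′ to 3′ on the strand of the gene. Capitals mark the GC box GGGCGG, the letters that Sp family factors are known to bind, and the TATA box TATAAA, each searched on both strands. The windows are chr22:32801455-32801704 (plus strand) for TIMP3, chr4:20251655-20251904 (plus strand) for SLIT2, chr2:150487668-150487917 (minus strand, the first of 2 listed starts) for RND3, and chr12:118135874-118136123 (plus strand) for PEBP1.
TIMP3: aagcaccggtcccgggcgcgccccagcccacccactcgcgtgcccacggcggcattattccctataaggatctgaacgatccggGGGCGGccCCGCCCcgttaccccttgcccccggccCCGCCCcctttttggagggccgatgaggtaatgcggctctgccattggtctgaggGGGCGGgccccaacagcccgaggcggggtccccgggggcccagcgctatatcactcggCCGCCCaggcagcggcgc
SLIT2: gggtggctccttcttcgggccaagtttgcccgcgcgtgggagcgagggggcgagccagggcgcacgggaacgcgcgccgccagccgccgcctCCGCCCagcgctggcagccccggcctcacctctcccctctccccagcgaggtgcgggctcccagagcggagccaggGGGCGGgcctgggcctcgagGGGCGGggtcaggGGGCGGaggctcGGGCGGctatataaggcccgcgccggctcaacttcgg
RND3: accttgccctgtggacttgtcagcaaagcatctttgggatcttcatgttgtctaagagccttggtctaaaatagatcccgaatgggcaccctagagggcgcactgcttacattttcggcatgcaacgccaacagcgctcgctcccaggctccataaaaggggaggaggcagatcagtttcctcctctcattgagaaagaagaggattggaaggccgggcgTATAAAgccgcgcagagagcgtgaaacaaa
PEBP1: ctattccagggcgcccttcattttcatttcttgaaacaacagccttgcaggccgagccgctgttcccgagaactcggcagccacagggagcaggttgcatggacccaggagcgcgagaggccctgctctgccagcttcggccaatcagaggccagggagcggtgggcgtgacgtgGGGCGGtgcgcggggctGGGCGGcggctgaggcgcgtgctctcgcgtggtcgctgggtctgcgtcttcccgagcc
The TIMP3 and SLIT2 windows each held 5 GC boxes and the PEBP1 window 2. RND3 had no GC box match and an exact TATAAA that began 30 bases before the start. Only exact matches were marked. Near matches, such as tatataag just after the last GC box of SLIT2, stand in small letters. GC boxes stood both in promoters of genes that rose and in that of the gene that fell.

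Across all 9 genes the RefSeq table gave 21 windows of 300 bases, which also include 50 bases after the start. Their median GC content was 66.3%, beside 58.7% over all 35114 windows of the table, and their median number of CpG dinucleotides was 23 beside 14. The observed over expected CpG ratio had a median of 0.771 in the 21 windows and 0.579 in the table. Each of the 9 genes had at least 1 window with a ratio of 0.704 or more. A gene with several windows has more chances of a high one. The best window per gene was not taken over the whole table, so this has no like value beside it. RARB, CNR1, DAB2IP and RUNX3 also had windows below the median of the table. GGGCGG occurred in 12 of the 21 windows (45.0% of all windows hold it) and TATAAA in 3 (11.5% of all). Windows of 1 gene can overlap: the 2 of RND3 share the same TATAAA, so these 3 windows belong to 2 genes. CACGTG, an E-box, occurred in 1 window (7.26% of all). GTTCAC, a half-site known from the retinoic acid response element of RARB itself, also occurred in 1 window (7.68% of all).

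**Figure D1:**
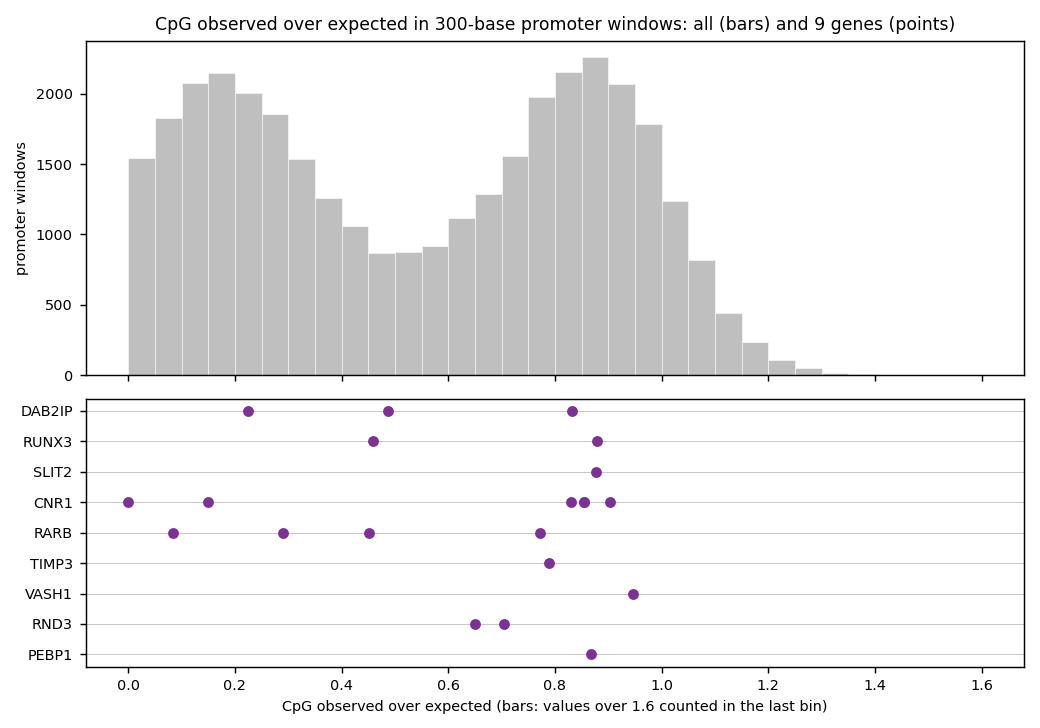
Observed over expected CpG ratio in promoter windows of 300 bases. The upper bars count all 35114 RefSeq windows by ratio, and the lower points are the 21 windows of the 9 genes, 1 row per gene. Every gene had a window at 0.704 or above, and CNR1, RARB, DAB2IP and RUNX3 also had low ones.

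The GTTCAC match lay in a RARB window and is shown because the retinoic acid response element of RARB is a well-known control sequence of this set. Capitals mark the half-sites on the plus strand, at chr3:25428205-25428233 of GRCh38.p14.
RARB: ggtaggGTTCACcgaaaGTTCACtcgcat
The window held 2 half-sites separated by 5 bases. The letters searched were those known from this element of RARB, so a match in RARB was set beforehand. The number of windows with this arrangement, 4 of 35114, is given as a description only.

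EZH2 itself, read by probe set 203358_s_at, checked the labels. Its signals were 1161 and 1221 in si-Control, 392.5 and 393.2 in si-EZH2, 839.0 and 822.4 in the wild-type add-back, and 806.2 and 825.6 in the T350A add-back. The groups did not overlap except for the 2 add-backs with each other. Here and below a difference is the limma estimate on log2(signal + 16) with its standard error (n = 2 arrays per group), p-values are adjusted over all 54613 probe sets of a comparison, and "rose", "fell" and "called" mean an adjusted p under 0.05. EZH2 fell by 1.56 ± 0.08 with si-EZH2 (adjusted p = 0.000273) and rose by 1.05 ± 0.08 and 1.02 ± 0.08 in the wild-type and T350A add-backs over si-EZH2. The add-backs stayed below si-Control, with differences of -0.51 ± 0.08 and -0.54 ± 0.08. With the 8 transfection arrays fitted alone, the rises in the add-backs were no longer called (adjusted p = 0.0619 and 0.0960), whereas the fall with si-EZH2 was (0.0365).

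Array medians lay between 107.2 and 117.0, and 31.7% to 34.5% of the probe sets of an array were under a signal of 50. The second arrays of Roscovitine and of the T350A add-back departed from their partners in alike ways: the replicate differences of these groups correlated with r = 0.714 across 27304 probe sets, while the other 20 pairs of groups gave -0.278 to 0.278. Probe sets are not independent replicates, and this r is a description. With both arrays left out, the number of probe sets of the 8 genes called in each comparison was as given below, except that TSA against DMSO gave 11 in place of 12. Of the LNCaP markers 7 genes were measured, including KLK3, KLK2 and TMPRSS2, and their means over the arrays lay between 2537 and 7953.

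In the 12 arrays without TSA most of the 28 probe sets gave low signals. On each of those arrays 20 of the 28 stayed under 150 and 7 stayed under 50, while the 3 PEBP1 probe sets had means over 1000. For a low probe set the 16 that was added before taking logarithms makes the difference smaller than the true ratio. The second deposited table, which repeats 7022 probe sets (12.9% of the array), held 7 of the 28, 2 each of TIMP3 and CNR1 and 1 each of SLIT2, VASH1 and RND3, with identical values.

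**Figure D2:**
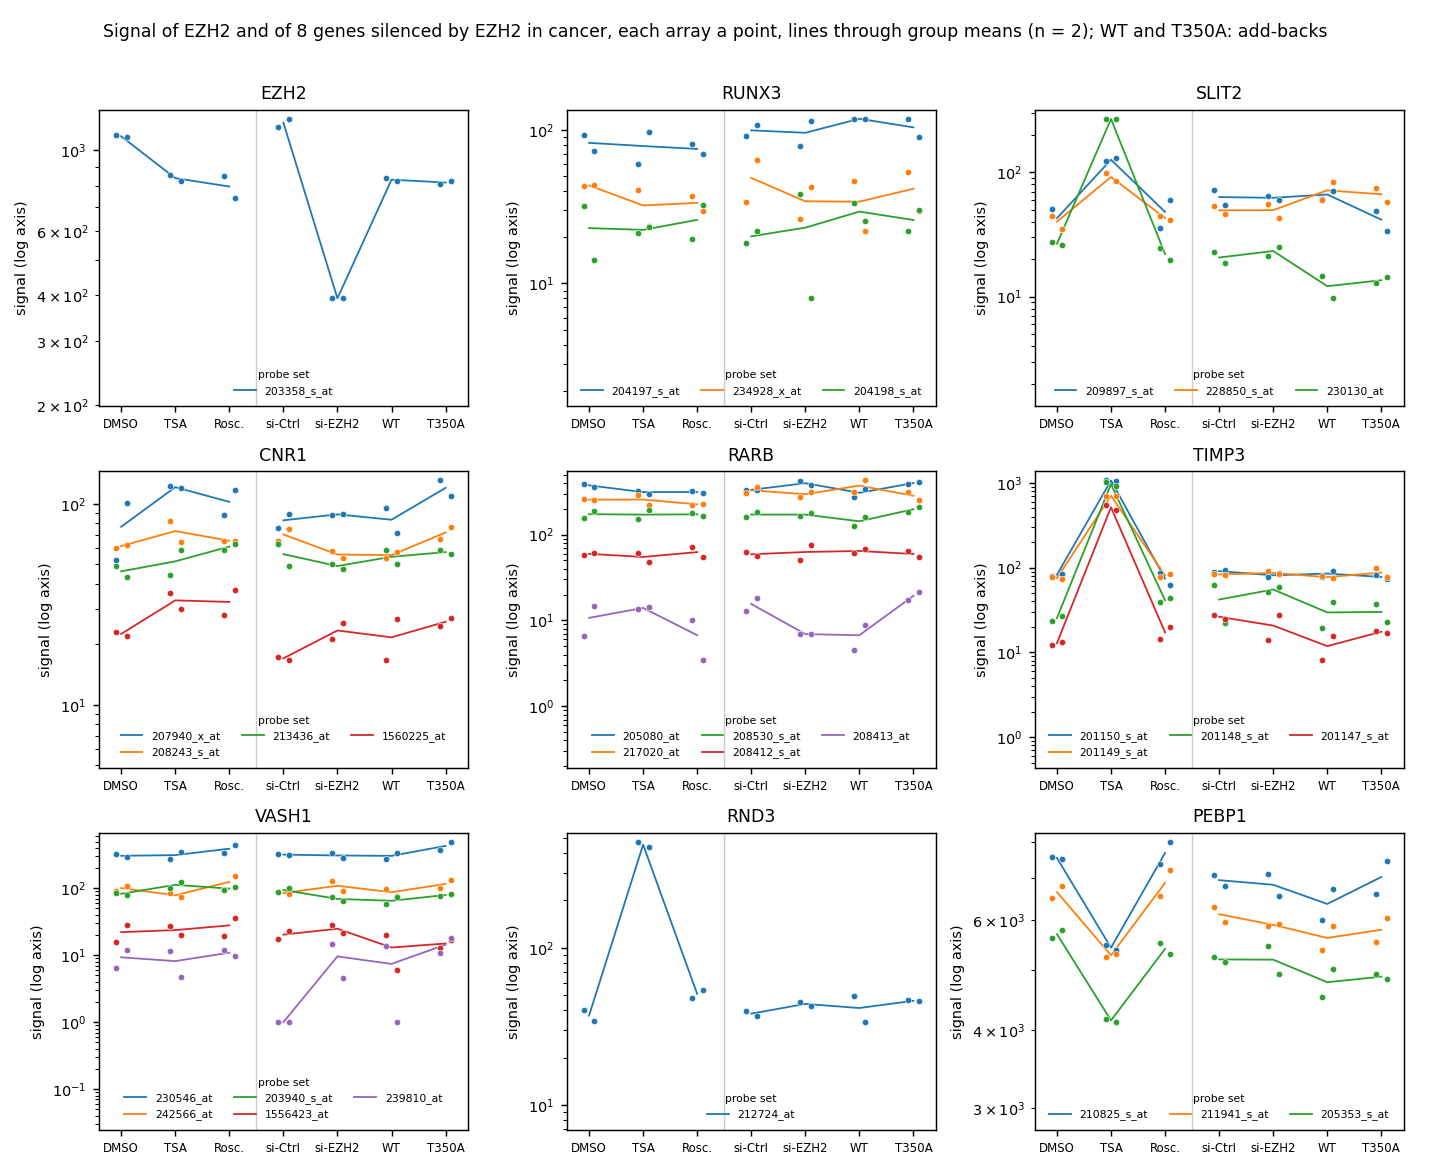
Signal (log axis, its range differing between panels) of EZH2 and the 8 genes in the 7 groups, with 1 colour per probe set, 1 point per array and lines through group means. The lines break between the drug and transfection experiments. EZH2 dropped from 1161 and 1221 to 392.5 and 393.2 under its siRNA, whereas TIMP3 and RND3 stood high on the 2 TSA arrays and low on the other 12. SLIT2 did so in 230130_at and 209897_s_at, while 228850_s_at, at 98.3 and 84.9 in TSA, reached 83.8 in the wild-type add-back.

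Knockdown of EZH2 was followed by no called change among the 8 genes. In si-EZH2 against si-Control 0 of 28 were called, where 0.233% of all probe sets were (127 of 54613). The smallest adjusted p among the 28 was 0.403, and 3 had an unadjusted p under 0.05. Their differences were above 0 in 12 and below 0 in 16, with a median of -0.0049 beside 0.028 for all probe sets. For 26 of the 28 the 95% confidence interval of the difference ended below 1, a doubling on this scale, and for 25 it lay between -1 and 1.

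TIMP3 probe set 201149_s_at read 83.3 and 82.9 in si-Control and 90.2 and 83.3 in si-EZH2, and 201150_s_at read 88.4 and 93.8 against 76.7 and 85.7. The arrays of the 2 groups overlapped in the first probe set, and in the second both si-EZH2 arrays were lower. Over the 4 TIMP3 probe sets the differences ran from -0.23 to 0.38, with adjusted p from 0.821 to 0.961. RND3 read 39.4 and 36.8 in si-Control and 45.5 and 42.5 in si-EZH2. The si-EZH2 arrays were both higher, but the difference of 0.15 ± 0.12 had an interval from -0.13 to 0.43 and an adjusted p of 0.832. SLIT2 differences ran from -0.0076 to 0.10 over its 3 probe sets.

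VASH1 probe set 203940_s_at had the smallest p of the 28 in this comparison. It read 88.6 and 99.8 in si-Control and 74.2 and 64.8 in si-EZH2, lower without overlap, with a difference of -0.37 ± 0.13 (adjusted p = 0.403). Another VASH1 probe set, 239810_at, was listed at 1 on both si-Control arrays and at 14.6 and 4.64 in si-EZH2. Its difference of 0.56 ± 0.28 went the opposite way and rests on signals below the 16 added to them.

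RARB probe set 205080_at read 334 and 331 in si-Control and 418 and 376 in si-EZH2. The si-EZH2 arrays were higher without overlap, with a difference of 0.24 ± 0.11 and an interval from -0.0034 to 0.49 (adjusted p = 0.568). RARB 217020_at, at 303 and 354 against 275 and 315, and 208413_at, at 12.9 and 18.2 against 6.93 and 6.93, had lower means in si-EZH2. Probe sets of the same nuclear receptor gene pointed in different directions, and none passed the test. CNR1 ranged from -0.26 to 0.25 over its 4 probe sets, RUNX3 from -0.34 to -0.0068 over 3, and PEBP1 from -0.055 to -0.0030 over 3. The PEBP1 intervals were the narrow ones of the set, between -0.25 and 0.19.

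Return of wild-type EZH2 was followed by a fall of 1 of the 28 probe sets, SLIT2 230130_at. It read 21.4 and 25.2 in si-EZH2 and 14.6 and 9.67 in the wild-type add-back, with 22.7 and 18.6 in si-Control. Both add-back arrays lay below all 4 other arrays, and all 6 signals were under 50. The fall was -0.49 ± 0.11 (adjusted p = 0.0361), and 6.37% of all probe sets were called in this comparison (3478), so that 1 call among 28, or 3.57%, was no more than the share of the whole array. The call was lost in 13 of 23 alternative fits, with adjusted p from 0.0273 to 0.200 over them, among them those without the first si-EZH2 array (0.102), the second (0.200) or the second wild-type add-back array (0.117).

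The other 2 SLIT2 probe sets had higher, not lower, means with wild-type EZH2. Probe set 228850_s_at read 56.0 and 43.2 in si-EZH2 and 59.3 and 83.8 in the add-back, a difference of 0.41 ± 0.17 (adjusted p = 0.219), and 209897_s_at read 64.4 and 60.3 against 61.5 and 71.1. Of the 28 differences 20 were below 0 and 8 above, with a median of -0.076 beside -0.042 for all probe sets. RARB 205080_at read 274 and 339 in the wild-type add-back, below both si-EZH2 arrays, with a difference of -0.36 ± 0.11 (adjusted p = 0.0914). It was called when only the probe sets of higher mean signal were tested (adjusted p = 0.0317) and without wild-type add-back replicate 2 (-0.51, adjusted p = 0.0242). TIMP3 201148_s_at, at 51.2 and 59.3 against 19.6 and 39.6, was lower without overlap but spread widely (-0.68 ± 0.32, adjusted p = 0.279). RND3 read 49.2 and 33.7, values on either side of those in si-EZH2. Cell markers moved in this comparison as well: the 7 LNCaP markers summed to 24675 and 30289 in the wild-type add-back and to 33924 and 34505 in si-EZH2. Of the 7 genes 2 fell, and by probe sets 3 of 16, where 6.37% of all probe sets were called. The part of this in the results was not tested.

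Against si-Control, the wild-type add-back gave 0 calls among the 28 (3.87% of all probe sets were called, 2115), the smallest adjusted p being 0.0908 for VASH1 203940_s_at. That probe set read 57.3 and 72.9 in the add-back, below both si-Control arrays, and was called without wild-type add-back replicate 2 (-0.59, adjusted p = 0.0420). An unadjusted p under 0.05 was found for 6 of the 28.

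The T350A add-back was likewise followed by no called change. Against si-EZH2, 0 of 28 were called beside 0.342% of all probe sets (187), with a smallest adjusted p of 0.212 and 4 unadjusted p under 0.05. That smallest p belonged to SLIT2 230130_at, at 12.8 and 14.3, again below both si-EZH2 arrays (-0.41 ± 0.11). Next was RARB 208413_at, at 17.2 and 21.6 against 6.93 and 6.93 (0.62 ± 0.18, adjusted p = 0.253). Against si-Control, 0 of 28 were called beside 1.02% of all probe sets (558), with a smallest adjusted p of 0.274 and 4 unadjusted p under 0.05.

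The direct comparison of the add-backs tested whether the T350A change altered the response. Of the 28 probe sets 0 were called in T350A against wild-type, where 0.0348% of all probe sets were (19 of 54613), and the smallest adjusted p was 0.228. The count for the whole array was itself unsteady: it was 1202 without wild-type add-back replicate 2, 114 without T350A add-back replicate 2, and 0 without any 1 of the 8 arrays of DMSO, TSA, si-Control and si-EZH2. Differences were above 0 in 21 and below in 7, with a median of 0.14 beside 0.061 for all probe sets, and 6 had an unadjusted p under 0.05. All 5 VASH1, all 4 CNR1 and all 3 PEBP1 differences were above 0, with none called. For 25 of the 28 the interval of the difference lay between -1 and 1.

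RARB again showed its probe sets apart in this comparison. Probe set 205080_at read 390 and 407 in the T350A add-back against 274 and 339 in the wild-type, higher without overlap (0.37 ± 0.11, interval 0.12 to 0.61, adjusted p = 0.236). Probe set 208530_s_at read 185 and 209.5 against 125.5 and 160.2 (0.43 ± 0.15, adjusted p = 0.276). Probe set 217020_at read 310 and 256 against 317 and 427 and was lower (-0.37 ± 0.17, adjusted p = 0.385). SLIT2 230130_at differed between the add-backs by 0.076, with overlapping arrays, and RND3 by 0.12 (interval -0.16 to 0.41). The comparisons with si-EZH2 share its arrays, and those with each add-back share theirs, so similar values across them are not independent.

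**Figure D3:**
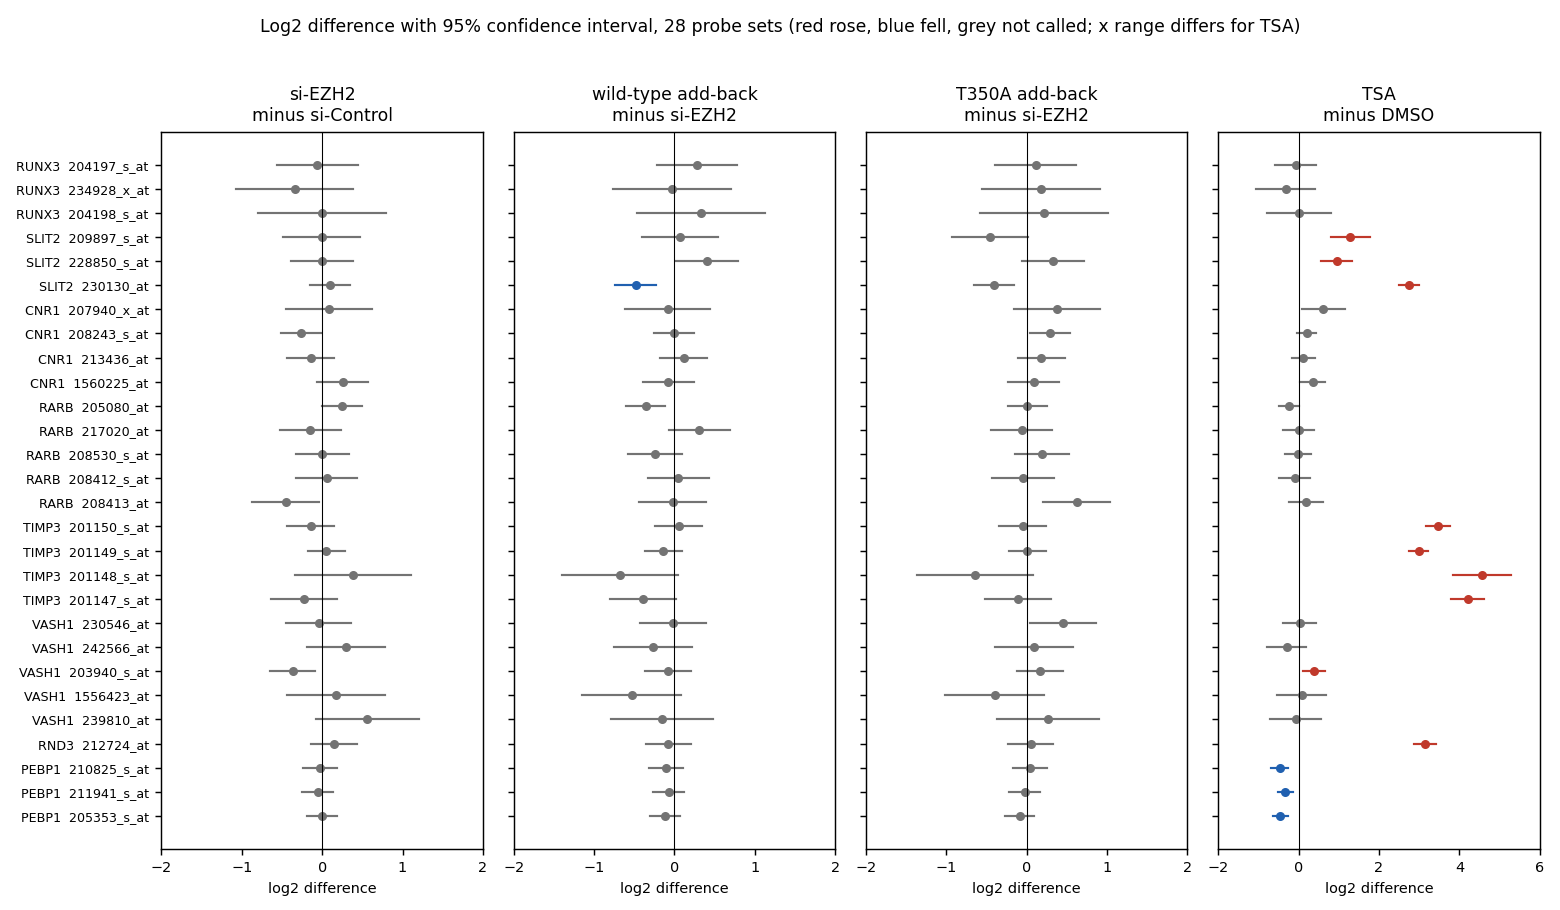
Log2 difference (x axis, wider for TSA) with its 95% confidence interval for each of the 28 probe sets in 4 comparisons, red where called higher, blue where called lower and grey where not called. The intervals of the 3 EZH2 comparisons cluster around 0 with 1 call, SLIT2 230130_at, whereas under TSA TIMP3, SLIT2 and RND3 lie to the right and PEBP1 to the left.

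TSA divided the genes. TIMP3, SLIT2 and RND3 rose, each in every probe set it had, PEBP1 fell in all 3, VASH1 rose in 1 of 5, and no probe set of CNR1, RARB or RUNX3 was called. Of the 28 probe sets 9 rose, 3 fell and 16 were not called. The 12 called were 42.9% of the 28, beside 31.9% called of all probe sets (17414 of 54613), so a count of this size was not far from that of the array as a whole. The sizes differed more: 7 of the 28 exceeded 1.02, the 95th percentile of all differences. All 7 belonged to TIMP3, SLIT2 or RND3, and probe sets of 1 gene are not independent. The median of the 28 was 0.096 beside 0.011 for all.

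TIMP3 had the large rises of the set. Probe set 201150_s_at read 80.3 and 84.4 in DMSO and 1071 and 1069 in TSA, 201149_s_at 78.0 and 72.5 against 711 and 702.5, and 201148_s_at 23.8 and 27.0 against 1018 and 915. In 201147_s_at the signals were 12.3 and 13.4 in DMSO and 556 and 479 in TSA. All 8 TSA signals of this metalloproteinase inhibitor were above every one of its signals outside TSA, which ended at 97.8. The differences were 3.47 ± 0.13, 2.99 ± 0.10, 4.57 ± 0.32 and 4.21 ± 0.18, with adjusted p between 7.91e-08 and 4.13e-06. In ratios of mean signals the first pair were 13.0-fold and 9.40-fold. No ratio is given for the other pair, whose DMSO signals lay under 50, and the difference of 201148_s_at moved between 3.53 and 5.20 over the alternatives.

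RND3 read 40.0 and 34.1 in DMSO and 469 and 437 in TSA. Its difference was 3.15 ± 0.12 (adjusted p = 1.69e-07). On the 12 other arrays this small GTPase gene never passed 53.6. The TSA arrays stood clear of both the untreated and the transfected cells.

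SLIT2 rose in 3 of 3 probe sets, but by unequal amounts. Probe set 230130_at read 27.3 and 26.0 in DMSO and 270 and 266 in TSA, a difference of 2.74 ± 0.11 (adjusted p = 1.92e-07). Probe set 209897_s_at read 50.5 and 34.9 against 123 and 129 (1.29 ± 0.21, adjusted p = 0.00106). The third, 228850_s_at, read 44.8 and 35.2 against 98.3 and 84.9 (0.94 ± 0.17, adjusted p = 0.00195). All 6 TSA signals of this guidance ligand were above the DMSO signals of their probe sets. The 8 rises of TIMP3, SLIT2 and RND3 were called in every one of the 23 to 25 alternative fits run for each.

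PEBP1 gave strong signals in every group and fell modestly. Probe set 210825_s_at read 7565 and 7510 in DMSO and 5467 and 5369 in TSA (-0.48 ± 0.09, adjusted p = 0.00325). Probe set 205353_s_at read 5605 and 5788 against 4173 and 4120 (-0.46 ± 0.08, adjusted p = 0.00177). Probe set 211941_s_at read 6507 and 6786 against 5238 and 5300 (-0.33 ± 0.09, adjusted p = 0.0142). The TSA means were 0.719, 0.728 and 0.793 of the DMSO means, with no overlap in any of the 3. The fall of 211941_s_at was not called in 4 of 24 alternative fits, which were quantile normalization (-0.15, adjusted p = 0.137) and those without DMSO replicate 2 (adjusted p = 0.0883), TSA replicate 1 (0.0647) or TSA replicate 2 (0.0529).

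VASH1 203940_s_at read 86.3 and 79.2 in DMSO and 102 and 124 in TSA, a rise of 0.38 ± 0.13 (adjusted p = 0.0461). It was called in 6 of 23 alternative fits, and without TSA replicate 2 it was 0.26 (adjusted p = 0.266). The other 4 VASH1 probe sets ranged from -0.30 to 0.075 and were not called. Among them 230546_at read 322 and 291 in DMSO and 277 and 349 in TSA, arrays that overlapped.

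CNR1, RARB and RUNX3, both receptors and the transcription factor, had 12 probe sets and 0 calls under TSA. CNR1 differences were all above 0, from 0.12 to 0.61. Its 207940_x_at read 52.5 and 101 in DMSO and 122 and 120 in TSA, with an interval from 0.081 to 1.14 (adjusted p = 0.0806), and it was called without DMSO replicate 2 (1.00, adjusted p = 0.00571). Its 1560225_at (0.35 ± 0.14, adjusted p = 0.0974) was called without either wild-type add-back array (adjusted p = 0.0455). RARB differences ran from -0.25 to 0.18 with all 5 intervals between -0.50 and 0.60, and RUNX3 differences from -0.32 to 0.014 with intervals between -1.05 and 0.81. These intervals end below 1 for all 8 RARB and RUNX3 probe sets, and below the rises of TIMP3 and RND3.

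Markers of the cells moved with TSA too. The summed signal of the 7 LNCaP markers was 14836 and 14158 in TSA against 24675 to 37794 on the other arrays, and 5 of the 7 genes fell and 1 rose. The markers did not move alike. TSA means were 0.0309, 0.0122, 0.0675, 0.164 and 0.502 of those in DMSO for KLK3, KLK2, TMPRSS2, FOLH1 and HOXB13. For KRT18 and KRT8 they were 0.908 and 1.91. The sum of 5 markers of androgen-independent or basal prostate lines was 1653 and 1598 in TSA against 683 to 1294 elsewhere, of which VIM carried most, at a mean of 1390 against 561 in DMSO. Of the 5 genes 2 rose, VIM and CAV1, and 3 were not called: KRT5, KRT14 and CD44 had TSA means of 0.888, 0.841 and 0.931 of those in DMSO. The sum of 5 fibroblast and endothelial markers was 2577 and 2501 in TSA, within 2100 to 2990 elsewhere. Of these genes 1 rose and 2 fell. COL1A1 had a mean of 1142 in TSA and 398 in DMSO, and COL1A2 stayed at 23.1 against 21.2. COL3A1, VWF and PECAM1 had TSA means of 0.527, 0.574 and 0.783 of those in DMSO. Leukocyte markers summed to 242 and 252 in TSA and to 244 to 341 elsewhere. By probe sets, 1 of 16 of the LNCaP markers rose and 11 fell, and 3 of 19 of the androgen-independent or basal markers rose. Among fibroblast and endothelial markers 2 of 20 rose and 3 fell, and among leukocyte markers 0 of 7 rose and 1 fell. The share called of all probe sets was 31.9%. From the summed signal of a culture, fewer cells of a kind and less RNA per cell cannot be told apart. The part of these shifts in the TSA results was not tested. EZH2 itself fell by 0.37 ± 0.08 with TSA (adjusted p = 0.00520) and by 0.45 ± 0.08 with Roscovitine (adjusted p = 0.0350), both against the same DMSO arrays. The Roscovitine fall was lost in 14 of 25 alternative fits, with adjusted p up to 0.233.

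With Roscovitine 0 of the 28 probe sets were called, where 1.26% of all probe sets were called (689). The smallest adjusted p was 0.292, for RND3 at 48.3 and 53.6 against 40.0 and 34.1 in DMSO, higher without overlap, by 0.34 ± 0.12. An unadjusted p under 0.05 was found for 3 of the 28, and 27 of the 28 intervals lay between -1 and 1. TIMP3 stayed low, with 86.2 and 62.3 in 201150_s_at, and SLIT2 230130_at read 24.5 and 19.5.

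Relatives and partners of the 8 genes, 20 measured of 22 listed, were set beside them. EZH2 knockdown called 0 of these 20 genes and 0 of their 52 probe sets in either direction, where only 0.233% of all probe sets were called. Under TSA 6 rose, 7 fell and 8 were not called, with VASH2 counted in both directions, at a median of 0.14 over 52 probe sets. By probe sets, 10 of the 52 rose and 9 fell, where 31.9% of all probe sets were called. RND1, a sister of RND3, read 11.4 and 12.3 in DMSO and 743 and 682 in TSA (4.71 ± 0.34, adjusted p = 5.05e-06). TIMP2 rose in 3 probe sets, by 0.74 ± 0.08 in 231579_s_at, from 762 and 747 to 1282 and 1262. RXRA, the partner of retinoic acid receptors, fell by 1.63 ± 0.09 (adjusted p = 9.48e-07), from 1636 and 1659 to 520 and 522, and CBFB, the partner of Runt family factors, fell by 1.00 ± 0.10 in 202370_s_at. ROBO1, a receptor of SLIT2 that was picked here after its value was seen, rose by 1.43 ± 0.19 in 213194_at. RUNX2, which had a smaller p than ROBO1, fell by 2.12 ± 0.24 in 232231_at (adjusted p = 0.000108), from 412 and 390 to 89.0 and 71.9. In its 216994_s_at the means were 109 in TSA and 103 in DMSO.

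RND1 also rose in both add-backs over si-EZH2, which RND3 did not. It read 16.4 and 33.8 in si-Control, 15.98 and 17.3 in si-EZH2, 330 and 168 in the wild-type add-back and 270.5 and 140 in the T350A add-back. All 4 add-back arrays were far above the 4 others, though the 2 arrays of each add-back were themselves widely spread. The add-back groups had a plasmid and the others none, and the part of the plasmid was not tested. The differences from si-EZH2 were 2.95 ± 0.34 (adjusted p = 0.00341) and 2.69 ± 0.34 (adjusted p = 0.0153). With the transfection arrays alone neither was called (adjusted p = 0.0758 and 0.275). With wild-type EZH2 over si-EZH2, where 6.37% of all probe sets were called, RUNX2 rose too, by 1.11 ± 0.24 in 232231_at. Its means were 283 in si-EZH2, 644 in the wild-type add-back and 700 in the T350A add-back, whose difference from si-EZH2 was 1.21 ± 0.24 (adjusted p = 0.101) and from the wild-type 0.10 ± 0.24. VASH2 (-0.73 ± 0.10 in 235343_at) and RASAL2 (-0.58 ± 0.10 in 227036_at) fell with wild-type EZH2, and T350A against wild-type gave 0.51 ± 0.10 (adjusted p = 0.149) and 0.36 ± 0.10 (adjusted p = 0.211). With the transfection arrays alone these 3 calls were lost (adjusted p = 0.144 for RUNX2 and 0.0843 for both others).

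**Figure D4:**
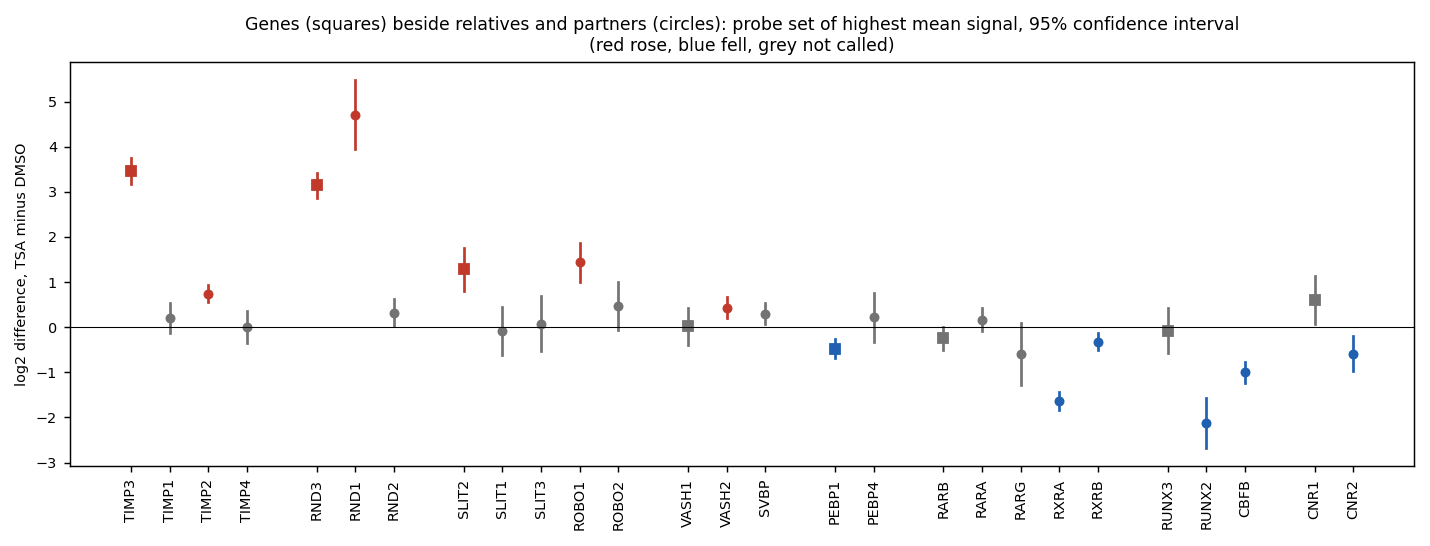
Log2 difference between TSA and DMSO (y axis) with its 95% confidence interval for each of the 8 genes (squares) and its relatives and partners (circles), each gene by its probe set of highest mean signal. TIMP3 and RND3 lie near 3 beside RND1 at 4.71, whereas RUNX2 lies at -2.12 and RXRA, CBFB and PEBP1 also lie below 0.

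Another 17 genes, of 20 listed, that have been reported as repressed by EZH2 were also followed. Under knockdown 0 of them were called in si-EZH2 against si-Control, with a median of 0.037 over 42 probe sets. Only 0.233% of all probe sets were called there. Under TSA 6 rose, 5 fell and 6 were not called. By probe sets, 10 of the 42 rose and 10 fell, where 31.9% of all probe sets were called. The CDK inhibitor CDKN1C rose in 4 probe sets by 3.76 to 4.62. CCN3 rose by 3.51 ± 0.19 in 214321_at, from 4.73 and 6.70 in DMSO, while its brighter probe set 204501_at was not called, at 148 and 112 in DMSO and 156 and 163 in TSA (0.28 ± 0.20, adjusted p = 0.372). In contrast, the BMP receptor BMPR1B fell by 2.91 ± 0.10 in 229975_at. IGFBP3, which binds insulin-like growth factors, rose with TSA in both probe sets (2.01 ± 0.13 in 212143_s_at).

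IGFBP3 was also the 1 gene of this second list called between the add-backs, in the fit of all 14 arrays. In 210095_s_at it read 940 and 851 in si-Control, 598 and 590 in si-EZH2, 1934 and 1662 in the wild-type add-back and 804 and 935 in the T350A add-back. The wild-type arrays were above all others of the transfection experiment. T350A lay below wild-type by 1.03 ± 0.11 (adjusted p = 0.0362) and, in 212143_s_at, by 1.11 ± 0.13 (adjusted p = 0.0470). These calls were lost in 14 of 25 and 15 of 24 alternative fits, among them the replicate block (adjusted p = 0.0683 for both), the transfection arrays alone (0.390 for both), and every fit without 1 array of DMSO, TSA, Roscovitine, si-Control or si-EZH2 (0.0772 to 0.115). The differences stayed between -1.29 and -0.92.

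With wild-type EZH2 over si-EZH2, 3 of the 17 genes rose (IGFBP3, CDKN1C and CDKN2A) and 2 fell (MSMB and KCNA1). By probe sets, 5 of the 42 rose and 3 fell, where 6.37% of all probe sets were called. With T350A 0 of the 17 genes and 0 of their 42 probe sets were called, where 0.342% of all probe sets were. The counts alone do not show that the add-backs differed: apart from IGFBP3, none of these genes was called in T350A against wild-type. KCNA1 230849_at had means of 83.9 in si-EZH2, 37.6 in the wild-type add-back and 45.3 in the T350A add-back. Its difference between the add-backs was 0.19 ± 0.17 (adjusted p = 0.654). With the transfection arrays alone all 5 calls with wild-type EZH2 were lost, with adjusted p from 0.0619 for IGFBP3 to 0.163 for CDKN2A.

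Of 11 measured PRC2 subunits only EZH2 was called under knockdown, 1 of 33 probe sets, where 0.233% of all were called. With wild-type EZH2 over si-EZH2, 3 of 33 probe sets rose (6.37% of all were called): EZH2 and 2 of JARID2 (0.37 ± 0.09 and 0.33 ± 0.08). The JARID2 calls were lost in 14 of 25 and 19 of 24 alternative fits. Over si-Control, JARID2 rose by 0.59 ± 0.09 and 0.49 ± 0.08 and PHF19 fell by 0.77 ± 0.14 in 227211_at (3.87% of all were called). In T350A against wild-type 0 of the 33 were called (0.0348% of all). TSA raised 5, led by JARID2 (1.09 ± 0.09), and lowered 4, led by RBBP4 (-0.83 ± 0.08 in 210371_s_at). By probe sets, 9 of 33 rose and 8 fell, where 31.9% of all probe sets were called.

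The genes whose log2 signals followed those of the set most closely over the 14 arrays are given as a description, with each gene represented by the probe set of highest mean signal and at least 1 call. For TIMP3 they were RIF1 (Pearson r = 0.995), CYP4F2 (0.995) and BEX1 (0.993), and for RND3 PLA2G15 (0.996), LINC01419 (0.994) and NEFH (0.993). For SLIT2 they were CEP89 (0.925), DCTN1 (0.906) and TSPAN7 (0.901), and for PEBP1 CCT5 (0.975), TMEM109 (0.975) and SLC25A15 (0.972). The points share the 7 groups and the same 14 arrays, among which the 2 TSA arrays lay far from the other 12.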

How the data were processed

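The study hybridised 14 LNCaP RNA samples to 1 Affymetrix array each, after RNeasy isolation and standard biotin labelling, per the labels' protocols. The deposited tables hold linear intensity values (signals) for 54613 probe sets, as the authors summarized them, and the smaller table repeats the values of 7022, although its first line describes a ratio to si-Control. How they were summarized and scaled is not stated in the labels or headers. Groups were taken from the sample titles.

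Probe sets were named with the platform annotation: 41091 carried 1 symbol (41037 matched RefSeq by gene identifier), 1801 carried several and 11721 had none. Genes were named only through 1-symbol probe sets. Signals entered limma 3.58.1 (R 4.3.3) as log2(signal + 16), all probe sets and arrays in 1 model of group means with 8 contrasts, eBayes with the default prior (7 residual and 2.09 prior degrees of freedom), and Benjamini-Hochberg adjustment over all 54613 probe sets of a contrast, called under 0.05. The number of arrays limits the precision. The fit was tested on simulated data. Tables used pandas 2.3.3 in Python 3.11.15 and figures matplotlib 3.10.9.

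The named genes were the 9 genes with every probe set, EZH2, from each list up to 4 called genes per contrast with the smallest p, and, for each gene with a call, the 3 genes (mean signal of at least 100) of highest Pearson correlation with its called probe set of highest mean. The lists were other EZH2-repressed genes, relatives and partners, PRC2 subunits and markers of LNCaP, leukocytes, fibroblasts and endothelium, and androgen-independent or basal lines. Members and lists were chosen with earlier results of these data known. Alternatives were pseudocounts of 1 and 64, quantile normalization, equal array medians, 3 choices of probe sets, each experiment alone, a replicate block, a trended robust prior, and leaving out each array, or both deviating arrays.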

Additional observations from a re-analysis of the deposited data

How the results depend on the processing

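The comparisons of EZH2 groups gave 0 or 1 called probe set of 28 under every alternative run. Between si-EZH2 and the wild-type add-back the count of 1 became 0 with a pseudocount of 64, with each array at the same median, with 1 probe set per gene, with the transfection arrays alone and with a robust prior that follows intensity, and it ranged from 0 to 1 when each array was left out in turn. For the wild-type add-back against si-Control it ranged from 0 to 1 in the same way. Under TSA the 12 called became 6 when only probe sets of higher mean signal were tested and 4 with 1 probe set per gene, since these leave 10 and 8 of the 28 to test. The median CpG ratio of the promoters moved from 0.771 to 0.763 with only the 200 bases before the start, and that of all promoters from 0.579 to 0.569. No difference that was called among the 28 changed sign. Counts over the whole array moved more: leaving out 1 array at a time gave 21 to 139 calls in si-EZH2 against si-Control, 321 to 4516 for wild-type EZH2 over si-EZH2, 33 to 471 for T350A over si-EZH2, and 0 to 1202 in T350A against wild-type. The transfection arrays alone gave 3, 2 and 0 in the last 3 of these.

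The labels do not say whether replicate numbers pair the samples. Of 21 pairs of groups 1 had replicate differences that correlated at 0.714, and the other 20 lay between -0.278 and 0.278. With the replicate number as a block, 12 probe sets were called under TSA, 1 between si-EZH2 and the wild-type add-back and 0 in the other comparisons, as without it. Over the whole array the block left 0 calls in T350A against wild-type, in place of 19, so both IGFBP3 calls were lost. Signals under 50 limit what can be seen of the low probe sets.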
